A study of Mus musculus with 9 samples.

Results

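The catalog probes described here are the oligonucleotides whose names begin with A_51_P or A_52_P, each 60 bases long and printed as 1 spot. They were chosen by name and not by any measured value. They numbered 12191 of the 91188 non-control probes on the array (13.4%), of which 7048 were A_51_P and 5143 were A_52_P probes. Of these, 7394 (60.7%) passed the detection limit of 3 arrays out of 9 and entered the tests, namely 4502 A_51_P and 2892 A_52_P probes. The remaining 4797 did not enter the main tests. They were described by their detection, by a median level near the limit, and in the alternative without a filter. Detection here means the scanner software's flag "well above background", which marks a spot whose signal clearly exceeds the background around it. A probe with several spots counted as detected if no fewer of its spots carried the flag than lacked it. The mmu and A_30_P probes had a median of 2 spots, so their detection and levels are not measured quite as those of catalog probes.

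The arrays measured RNA of the whole aorta of male C57BL/6J mice in 3 groups of 3 arrays: a normal diet (ND), a high fat diet (HF), and a high fat diet with exercise, given in the labels as 60 min (HE), each for 12 weeks. Each group held 8 mice, and mice of every group were fasted overnight before the tissue was taken. The labels do not say whether an array carried 1 mouse or a pool, so p-values measure only the spread between these arrays, which may be technical. The aorta holds endothelium, smooth muscle and adventitial cells, and in such bulk RNA fewer cells of a type and less RNA per cell cannot be told apart. Probes come without gene names in the files, so the tissue was not checked against marker genes.

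Names of the A_51_P and A_52_P form belong to Agilent's catalog designs for mouse transcripts. The same array also carries the series A_30_P, A_55_P, A_65_P, A_66_P and mmu, and the study used it for long non-coding RNA besides messenger RNA. In this assay an oligo-dT primer starts copying at the poly(A) tail of a transcript, and labelled complementary RNA then binds to probes held on the glass by their 3′ ends. A probe's brightness therefore reflects the amount of its transcript, the distance of its target from the tail, and how well that particular 60-base sequence binds. Brightness of different probes is not a comparison of RNA amounts, and only the change of a probe between arrays is read below as a difference.

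Overlapping probes show the last point directly, so 3 pairs are given first, each a catalog probe with a probe of another series that reads the same strand. Capitals mark the bases that both probes of a pair share. The first pair is shifted by a few bases only and shares 58 of the 60 bases.
A_51_P244531: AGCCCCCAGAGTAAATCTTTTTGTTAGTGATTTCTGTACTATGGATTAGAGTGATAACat
mmu_16841_PI428960544: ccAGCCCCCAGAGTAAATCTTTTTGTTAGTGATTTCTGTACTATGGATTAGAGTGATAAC
The second pair shares 32 bases.
A_52_P504330: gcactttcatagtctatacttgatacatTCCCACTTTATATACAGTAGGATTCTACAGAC
mmu_12218_PI428960544: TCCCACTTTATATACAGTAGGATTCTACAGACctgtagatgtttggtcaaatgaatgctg
The third pair shares 48 bases.
A_52_P170882: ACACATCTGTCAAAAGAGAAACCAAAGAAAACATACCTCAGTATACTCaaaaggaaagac
A_55_P2060379: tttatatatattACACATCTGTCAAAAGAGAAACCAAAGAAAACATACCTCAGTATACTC
These pairs were chosen after their values were seen, as those in which the larger of both probes' unadjusted p was smallest in each comparison.

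A further 4 catalog probes are shown because later results turn on them. A_52_P452689 was among the probes with the smallest p in HE against HF and was detected on all arrays, and A_52_P311031, A_51_P279854 and A_51_P372156 could be placed in the genome by sequence. They are printed in lower case because no part of them is singled out.
A_52_P452689: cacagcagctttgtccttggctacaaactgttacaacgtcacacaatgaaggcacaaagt
A_52_P311031: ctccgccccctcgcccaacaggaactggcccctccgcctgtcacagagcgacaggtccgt
A_51_P279854: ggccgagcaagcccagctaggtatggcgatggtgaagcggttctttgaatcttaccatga
A_51_P372156: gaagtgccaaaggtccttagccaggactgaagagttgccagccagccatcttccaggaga

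Slides and groups were only partly crossed. Of the 3 slides, the first carried all ND arrays together with HF replicate 1. On slide 2 were HE replicates 1 and 2 beside HF replicates 2 and 3, and HE replicate 3 had slide 3 to itself. Without a slide term, HE against ND can thus not be told apart from slide, since no slide holds both groups. A slide term links these groups only through the HF arrays. RNA quality was read from control probes at both ends of 2 transcripts. The log2 signal of the Pgk1 3′ probe minus that of its 5′ probe was 2.26 to 2.47 in ND, 2.17 to 2.44 in HF and 1.96 to 2.19 in HE, lower in every HE array than in any ND array. The same difference for Gapdh was -1.89 to -1.72 in ND, -2.12 to -1.93 in HF and -1.99 to -1.68 in HE, lower in every HF array than in any ND array. Array HE replicate 2 had a spike-in slope of 0.981 against 0.778 to 0.841 on the others.

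Catalog probes were detected more often than all other series together on each of the 9 arrays. In ND 61.4%, 54.1% and 58.8% of the catalog probes were well above background on replicates 1 to 3, a mean of 58.1% ± 3.70 (SD, n = 3). In HF the shares were 53.6%, 58.8% and 59.2%, a mean of 57.2% ± 3.14 (SD, n = 3). In HE they were 57.9%, 47.1% and 59.5%, a mean of 54.9% ± 6.77 (SD, n = 3). The groups overlapped in all 3 comparisons, and the lowest array was HE replicate 2, the array with the steepest spike-in slope. Group means differed by -0.89 percentage points between HF and ND, by -2.36 between HE and HF and by -3.24 between HE and ND, each smaller than the within-group SD of HE. Without HE replicate 2 HE exceeded HF by 1.53 and ND by 0.64, and without HF replicate 1 HF exceeded ND by 0.92, so single arrays set its direction. On slide 2, the only slide with HE and HF arrays, the means were 52.5% in HE and 59.02% in HF without overlap, a difference of -6.5 percentage points. Most of it came from HE replicate 2, since HE replicate 1 stood at 57.9% against 58.8% and 59.2% in HF. The other series differed there by -4.455 percentage points, with overlap.

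The other series stood at 41.9% to 47.0% in ND, 39.2% to 44.6% in HF and 34.96% to 46.4% in HE. Catalog detection exceeded it by 12.2 to 14.4 percentage points in ND, by 14.4 to 15.1 in HF and by 12.1 to 13.6 in HE. That excess was larger in every HF array than in any HE array, with group means of 14.7 and 12.95 percentage points, and on slide 2 alone it was 14.9 in HF and 12.85 in HE. This separation depended on the scale. The ratio of the catalog share to that of the other series was 1.329 to 1.368 in HF and 1.284 to 1.347 in HE, with overlap. On slide 2 the mean ratios were 1.337 and 1.327, also with overlap. By the ratio, every HF array lay above every ND array, at 1.29 to 1.318 in ND. A_51_P probes were detected more often than A_52_P probes on each array, at 50.5% to 64.5% against 42.5% to 57.1%. The A_55_P series lay between A_51_P and the mmu series on each array, at 43.2% to 55.1% against 28.8% to 40.8% for mmu. The 236 A_65_P probes were detected at 43.6% to 61.0%, close to the catalog probes.

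Most catalog probes were either detected throughout or not at all. Of the 12191, 5493 (45.1%) were well above background on all 9 arrays and 4197 (34.4%) on none, against 33.4% and 47.8% of the other probes. Near the limit for testing, 192 probes were detected on exactly 3 arrays, with a median level of -2.09, and 203 on exactly 2 arrays, with a median level of -2.27. The level is the log2 processed signal relative to the array's 75th percentile over all non-control probes, so that 0 is that percentile. Detection on every array of a group was seen for 6435 catalog probes in ND (52.8%), 6362 in HF (52.2%) and 5686 in HE (46.6%). The other series stood at 40.3%, 37.9% and 34.4%, also lowest in HE. Such a share cannot exceed that of the group's lowest array. HE replicate 2 alone stood at 47.1% of the catalog and 34.96% of the other probes, so it limits both HE shares.

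Few catalog probes were detected on each array of one group and on no array of another. In HF against ND 4 probes were on in HF and off in ND (0.0541% of the tested catalog probes, 0.0432% of all tested probes), and 23 were on in ND and off in HF (0.311%, against 0.621% of all). In HE against HF 1 was on in HE (0.0135%, against 0.0478%) and 7 were on in HF (0.0947%, against 0.0728%). In HE against ND 0 were on in HE and off in ND (0.0296% of all), while 23 were on in ND and off in HE (0.311%, against 0.396%). The counts of probes on in HE were limited by HE replicate 2, the array with the lowest detection. The 4 probes on in HF, named after their values were seen, were A_52_P145349, A_52_P249920, A_52_P392742 and A_52_P484956, and the 1 probe on in HE against HF was A_51_P499698.

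A_52_P484956 had levels of -2.47, -2.21 and -2.91 in ND, -0.38, 0.61 and -0.35 in HF, and -1.29, -1.70 and -2.93 in HE. Its HF arrays stood above all others without overlap. The log2 difference was 2.49 for HF against ND (limma, unadjusted p = 0.00023, adjusted p = 0.33) and -1.93 for HE against HF (unadjusted p = 0.0014, adjusted p = 0.3), and neither passed after adjustment.

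The tested catalog probes were of middling brightness. Their median level over all arrays was 0.26, with a 10th percentile of -1.58 and a 90th of 2.81, whereas the other series had a median of 0.03 and a 90th percentile of 3.53. Only 41 catalog probes (0.554%) had a mean level above 6, against 865 (2.37%) of the others. A_51_P probes had a median of 0.30 and A_52_P probes one of 0.19. The median SD of a probe within a group was 0.220 for catalog probes and 0.221 for the others, a nearly equal spread. Values of mmu and A_30_P probes are averages over a median of 2 spots, so this does not compare single spots.

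The median level of the catalog probes moved against the rest of the array from group to group. The median over catalog probes minus that over the other series was 0.28, 0.070 and 0.23 in the ND arrays, a mean of 0.19 ± 0.11 (SD, n = 3). In HF it was 0.24, 0.32 and 0.33, a mean of 0.30 ± 0.051 (SD, n = 3). In HE it was 0.22, 0.19 and 0.13, a mean of 0.18 ± 0.042 (SD, n = 3). Every HF array lay above every HE array, ND overlapped with both, and ND replicate 2 was the lowest of all.

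HF exceeded ND by 0.10 in this gap, about as much as the spread of ND. Without ND replicate 2 the difference was 0.044, and on slide 1 HF replicate 1 exceeded the mean of the 3 ND arrays by 0.047. HE lay below HF by 0.12 in the mean (-0.12), and by the same amount between the pairs of HE and HF arrays on slide 2 (-0.12). HE against ND was -0.011. These differences are given without a test, and the part of RNA quality in them was not tested, and the 2 controls went opposite ways on slide 2. Pgk1 3′ minus 5′ was lower in HE than in HF there, at a mean of 2.03 against 2.36, and Gapdh 3′ minus 5′ was higher, at -1.70 against -2.04. Taken singly, the gap to A_55_P, A_66_P, mmu and A_30_P probes changed in the same direction, with HE minus HF of -0.080, -0.077, -0.15 and -0.13. The gap to the A_65_P probes changed in the opposite direction, by 0.10, so the catalog probes were not the only series with this shift.

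In HF against ND no catalog probe passed limma's test at an adjusted p under 0.05 over the 43948 probes tested (0 of 7394, 0.0% of all probes), and the smallest adjusted p was 0.26. Before adjustment, 549 catalog probes with p under 0.05 were higher in HF (7.42%, against 4.49% of all tested probes) and 137 were lower (1.85%, against 5.32%). Of the differences at that threshold 80.0% were thus higher among catalog probes, and 45.8% over all probes. With a difference of at least 2-fold, 41 were higher (0.555%, against 0.241%) and 12 lower (0.162%, against 0.46%). The 3 HF arrays lay above all 3 ND arrays for 1013 catalog probes (13.7%, against 8.61%) and below them for 228 (3.08%, against 7.73%).

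This lean was not tied to one sub-series. It was 336 higher and 92 lower among A_51_P probes and 213 higher and 45 lower among A_52_P probes. The median log2 difference was 0.089 and 0.093 respectively, and 66.1% of all catalog probes had a difference above 0, against 47.0% of the other series, whose median was -0.019. The mmu and A_30_P series had medians of -0.041 and -0.049, and the A_55_P and A_66_P series 0.017 and 0.026. The small A_65_P series, with 141 tested probes, leaned as the catalog probes did, with a median of 0.076 and 68.8% above 0.

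The counts for HF against ND depended on single arrays and on the slide. Without ND replicate 2 there were 322 higher and 143 lower catalog probes (69.25% higher, against 52.5% of all probes). Leaving out an HF array gave 615 and 231 for replicate 1 (72.7% higher, against 40.9% of all), 364 and 124 for replicate 2 (74.6%, against 42.3%), and 259 and 142 for replicate 3 (64.6%, against 39.4%). With slide as a block 143 were higher and 252 lower, so that higher differences no longer outnumbered lower ones. With the block, HF against ND rests on HF replicate 1 against the ND arrays of slide 1, so slide 1 alone is not a separate check. Among all probes the share of higher differences fell as well, to 22.6% with the block against 36.2% for catalog probes. The catalog median stayed 0.045 above that of all probes with the block, against 0.089 without it. With arrays centred on their medians 946 were higher and 79 lower, or 92.3% higher, and the share over all probes rose as well, to 72.2%.

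Under the slide block 4 catalog probes passed the adjusted threshold, A_51_P219325, A_51_P512157, A_52_P449694 and A_52_P481279, all lower in HF. Each rested on HF replicate 1. A_52_P481279 had levels of -0.82, -0.04 and -0.12 in ND, -3.37, -0.65 and -0.87 in HF, and -0.52, -0.64 and -0.54 in HE, and only HF replicate 1 stood apart.

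The catalog probes named for this comparison were mostly dim in one group. The rule took the 2 smallest p per direction among differences of at least 2-fold. A_52_P510638 had levels of -3.40, -3.95 and -2.94 in ND, -2.15, -1.79 and -1.87 in HF, and -2.07, -1.72 and -2.01 in HE. It was not well above background on any ND array, and HF was at least 2.43-fold brighter than the lowest signal that counted as detected there (limma log2 difference 1.5 ± 0.24 SE, adjusted p = 0.33). It was well above background on only 2 HF arrays and 1 HE array, which brought it into the tests. A_52_P249920 had levels of -2.34, -3.61 and -2.28 in ND, -0.80, -1.04 and -0.75 in HF, and -1.40, -1.29 and -1.22 in HE. It was at least 3.50-fold brighter in HF by the same measure, and its 3 groups did not overlap (limma adjusted p = 0.33).

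Among the lower ones, A_51_P111068 had levels of -1.49, -0.82 and -1.43 in ND, -3.24, -3.38 and -3.17 in HF, and -2.94, -3.39 and -1.87 in HE. A_51_P185693 had levels of -0.93, -0.55 and -0.56 in ND, -2.06, -3.11 and -3.53 in HF, and -2.96, -1.55 and -1.34 in HE. Neither was well above background on any HF array. ND was at least 3.35-fold brighter for the first and 4.65-fold brighter for the second (limma adjusted p = 0.33 and 0.37). None of these 4 probes passed the adjusted test. An "at least" fold here sets the mean level of the brighter group against the mean, over the dim group's arrays, of the higher of the probe's own level and the lowest level of any detected probe on that array. Where no own level fell clearly below that lowest level, the fold is that of the group means and is given without "at least". Neither kind of fold allows for the spread between arrays. A probe dim in one group entered the tests through the groups where it was detected.

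In HE against HF the direction was the other way. No catalog probe passed limma's adjusted threshold (0 of 7394, 0.0% of all probes), with a smallest adjusted p of 0.22. Before adjustment, 201 with p under 0.05 were higher in HE (2.72%, against 6.26% of all probes) and 832 were lower (11.3%, against 6.18%). With at least 2-fold, 18 were higher (0.243%, against 0.246%) and 36 lower (0.487%, against 0.239%). The HE arrays lay above all HF arrays for 357 catalog probes (4.83%, against 10.1%) and below them for 1492 (20.2%, against 11.5%). HF against ND and HE against HF share the 3 HF arrays, so their opposite directions are not independent of each other.

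The median log2 difference of HE against HF was -0.10 for A_51_P and -0.14 for A_52_P probes, against 0.021 for the other series. It was 0.060 for mmu, 0.053 for A_30_P, -0.035 for A_55_P and -0.045 for A_66_P probes. Of all catalog probes 33.1% had a difference above 0. The A_65_P series again moved like them, with a median of -0.14, 29.1% above 0, and 29.8% of its probes lower in HE without overlap. Without HF replicate 3, 175 were higher and 384 lower (31.3% higher, against 61.7% of all probes). Without HE replicate 2, 117 were higher and 647 lower (15.3% higher, against 47.1%). Those 2 arrays thus moved a count by more than 1.5 times, while lower differences still outnumbered higher ones. On slide 2 alone 248 were higher and 615 lower (28.7% higher, against 52.85%). The catalog median there lay 0.12 below that of all probes (-0.12), as in the fit over all arrays (-0.11). With arrays centred on their medians, 100 were higher and 1290 lower, or 7.19% higher, and 24.5% were higher over all probes. The shares without that centring were 19.5% of catalog probes and 50.3% of all.

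A_52_P452689, the probe printed above, had levels of 1.63, 1.78 and 1.96 in ND, 2.17, 2.65 and 2.64 in HF, and 1.38, 1.18 and 1.01 in HE. The 3 groups did not overlap, with HF highest and HE lowest. HE was lower than HF by a log2 difference of -1.30 ± 0.17 SE (limma unadjusted p = 3.6e-05, adjusted p = 0.22), which did not pass. After another background correction (normexp with offset 50) its adjusted p was 0.03, and A_51_P252859 and A_51_P272876 passed as well (adjusted p = 0.019 and 0.033, limma).

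Those 2 probes were also detected on every array and were named after their values were seen. A_51_P252859 had levels of 1.62, 2.43 and 2.07 in ND, 2.92, 2.70 and 3.18 in HF, and 1.23, 1.59 and 1 in HE. A_51_P272876 had levels of 1.78, 2.21 and 2.29 in ND, 3.10, 3.21 and 3.37 in HF, and 2.14, 2.23 and 1.63 in HE. In both, every HF array lay above every array of the other groups.

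A_51_P284946 was detected on all ND and HF arrays and on no HE array. Its levels were -1.17, -1.53 and -1.73 in ND, -0.44, -0.61 and -0.26 in HF, and -2, -2.21 and -2.96 in HE. By the group means HF was 3.87-fold brighter than HE (limma unadjusted p = 2.6e-05, adjusted p = 0.22). The higher ones were dimmer. A_51_P499698 had levels of -2.39, -2.21 and -1.91 in ND, -2.20, -2.36 and -3.41 in HF, and -1.02, -0.75 and -1.65 in HE, by the group means 2.86-fold brighter in HE than in HF. A_51_P111532 had levels of -1.88, -2.04 and -1.89 in ND, -2.97, -2.05 and -2.85 in HF, and -1.43, -1.44 and -1.83 in HE, at least 1.95-fold brighter in HE. It was well above background on only 2 HE arrays and 1 ND array, which brought it into the tests. Both higher probes had an adjusted p of 0.3 with limma.

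In HE against ND, which lie on different slides, the catalog probes leaned less, and the lean changed with the arrays kept. Of the differences with an unadjusted p under 0.05 (limma), 45.5% were higher among catalog probes, against 53.15% over all probes. No catalog probe passed limma's adjusted threshold (0 of 7394, 0.0% of all probes; smallest adjusted p 0.16), 375 were higher at an unadjusted p under 0.05 (5.07%, against 7.82% of all) and 449 were lower (6.07%, against 6.89%). With at least 2-fold, 48 were higher (0.649%, against 0.63%) and 39 lower (0.527%, against 0.678%). The groups did not overlap with HE higher for 555 (7.51%, against 10.4%) and with HE lower for 697 (9.43%, against 10.1%). The median difference was -0.013 for A_51_P and -0.049 for A_52_P probes, against -0.016 for the other series. Among A_51_P probes 247 were higher (5.49%) and 249 lower (5.53%), and among A_52_P probes 128 were higher (4.43%) and 200 lower (6.92%). Without HE replicate 2, 237 were higher and 305 lower (43.7% higher, against 55.1% of all probes). With slide as a block 129 were higher and 311 lower (29.3% higher, against 38.9%). Without ND replicate 2, 306 were higher and 520 lower (37.05% higher, against 59.65%). Without ND replicate 1, 435 were higher and 336 lower (56.4% higher, against 54.8%).

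A_51_P123625 had levels of -1.39, -2.07 and -1.54 in ND, -1.33, -1.30 and -1.05 in HF, and -0.31, -0.59 and -0.33 in HE, and the 3 groups were ordered without overlap. A_52_P31510 had levels of -4.22, -3.31 and -4.02 in ND, -2.87, -1.67 and -1.92 in HF, and -1.11, -2.04 and -1.44 in HE, and HE was at least 3.31-fold brighter than ND, where it was not detected. It was well above background on only 2 HE arrays and 1 HF array, which brought it into the tests. The HF values of the 2 lower ones overlapped with ND. A_51_P151254 had levels of -1.56, -1.48 and -1.51 in ND, -1.60, -1.94 and -1.08 in HF, and -4.20, -2.97 and -4.09 in HE, where it was not detected, and ND was at least 2.52-fold brighter. A_51_P479914 had levels of -0.66, -0.69 and -0.56 in ND, -0.50, -0.93 and -0.81 in HF, and -1.43, -1.69 and -1.80 in HE. All 4 had an adjusted p of 0.16 with limma for HE against ND.

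The catalog shift was seen in bright and in dim probes. In HE against HF the catalog median was -0.076 among the 852 probes with a mean level of -1.5 or less and -0.16 among the 636 above 3, while the other series went from 0.071 to -0.014 over the same bounds. In HF against ND it was 0.004 among the dimmest and 0.12 among the brightest, against -0.085 and -0.019 for the other series. In both comparisons the catalog median lay on the same side of the other series in each of the 5 brightness classes.

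Base composition moved with the differences of HE. In HE against HF the catalog median was -0.23 among the 1055 probes with a GC content of 35% or less and rose to 0.033 among the 843 probes above 55%, and the other series went from -0.077 to 0.077. Catalog probes stayed below the others in each of the 6 GC classes. In HE against ND the catalog median went from -0.16 to 0.080 and that of the others from -0.11 to 0.056. In HF against ND the catalog median lay between 0.053 and 0.11 in all 6 classes, and that of the others between -0.035 and -0.012. The mean GC content was 43% for A_51_P, 41.3% for A_52_P and 41.5% for the other probes, and the part of GC in the differences was not tested further.

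The letters AATAAA, the main signal for cutting and polyadenylation of messenger RNA, were found in 5.32% of A_51_P and 4.92% of A_52_P probes, searched as written on the probe's own strand. They were found in 16.4% of A_55_P, 12.2% of mmu and 3.70% of A_30_P probes. The letters of the other strand, TTTATT, were in 3.80% and 3.77% of A_51_P and A_52_P probes and in 3.996% of all other series. Among tested catalog probes, the 322 with AATAAA had medians of 0.057 for HF against ND and -0.096 for HE against HF, against 0.093 and -0.12 in the 7072 without it. Fewer catalog than A_55_P or mmu probes thus carry that signal in their bases, and both kinds of catalog probe moved in the same direction.

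Overlapping probes allowed the same stretch of transcript to be read by 2 series. By exact match of at least 20 bases at their ends, 382 catalog probes overlapped a probe of another series on the same strand, in 398 pairs, of which 302 were with mmu probes, 62 with A_55_P and 34 with A_30_P. In 180 pairs both probes were tested, in 172 neither was, in 22 only the catalog probe was, and in 24 only its partner. Detection was thus shared in most pairs.

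Signals of overlapping probes were near each other but not equal. The mean levels differed by a median of 0.47, with 137 of the 180 pairs within 1 and 12 pairs apart by more than 3. The median was 0.23 in the 57 pairs sharing 50 to 59 bases, 0.50 in the 65 sharing 35 to 49 and 0.74 in the 58 sharing 20 to 34. The catalog probe was the brighter one in 30, 32 and 33 of these pairs. Levels correlated with r = 0.72 across the 180 pairs, which share targets and arrays and are not independent.

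The pair A_51_P244531 and mmu_16841_PI428960544 was an exception despite its 58 shared bases. The catalog probe had levels of 0.17, 0.42 and -0.40 in ND, -0.33, -0.75 and -0.51 in HF, and -0.83, -0.45 and -0.15 in HE. The mmu probe had levels of 3.91, 4.15 and 4.10 in ND, 3.53, 3.84 and 2.99 in HF, and 3.58, 3.93 and 3.93 in HE, far above the catalog probe on every array. In HF against ND the differences were -0.59 ± 0.24 SE and -0.60 ± 0.21 SE (limma adjusted p = 0.5 and 0.46). Each of the 3 printed pairs was chosen for a small p of both probes in 1 comparison, so a change shared there is no support. This first pair was the only one of its overlap class with levels apart by more than 3.

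In the pair A_52_P504330 and mmu_12218_PI428960544 the catalog probe had levels of -0.23, -0.80 and -0.43 in ND, 0.09, -0.09 and -0.06 in HF, and -0.65, -0.78 and -0.82 in HE. Its partner had levels of -1.18, -1.73 and -1.67 in ND, -1.51, -1.45 and -1.40 in HF, and -2.29, -1.85 and -2.05 in HE. HE lay below HF without overlap in both, by -0.72 ± 0.16 SE and -0.61 ± 0.18 SE (limma adjusted p = 0.29 and 0.33).

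In the pair A_52_P170882 and A_55_P2060379 the catalog probe had levels of 2.35, 2.48 and 2.73 in ND, 2.67, 1.74 and 2.37 in HF, and 1.44, 1.67 and 1.71 in HE. Its partner had levels of 1.59, 1.57 and 1.80 in ND, 1.77, 0.61 and 1.21 in HF, and 0.15, 0.45 and 0.84 in HE. Both stood lower in every HE than in every ND array, by -0.91 ± 0.23 SE and -1.17 ± 0.28 SE, and both had their lowest HF value on HF replicate 2 (limma adjusted p = 0.17 and 0.16).

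Over the 180 pairs the medians of partners and catalog probes were alike. The median log2 difference was 0.11 for the catalog probes and 0.077 for their partners in HF against ND, -0.15 for both in HE against HF, and -0.032 and -0.045 in HE against ND. Of the catalog probes in these pairs, 12, 23 and 17 had an unadjusted p under 0.05 in the 3 comparisons. These are 6.67%, 12.8% and 9.44% of the pairs, against 9.81%, 12.4% and 14.7% of all tested probes in either direction. The partner's difference had the same sign in 10, 21 and 13 of them. Both probes were under 0.05 in 3, 13 and 9 pairs, each time with the same sign.

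The mmu partners stood apart from the rest of their own series. The 130 tested mmu probes that overlap a catalog probe had median differences of 0.083 in HF against ND and -0.15 in HE against HF, while the other 14199 mmu probes had -0.043 and 0.062. Per array, the median level of the 130 minus that of the other mmu probes was 0.38, 0.17 and 0.45 in ND, 0.39, 0.52 and 0.53 in HF, and 0.42, 0.31 and 0.22 in HE. The means were 0.33 ± 0.15, 0.48 ± 0.078 and 0.32 ± 0.10 (SD, n = 3 each), and HF overlapped with both other groups. On slide 2 the means were 0.52 in HF and 0.37 in HE. The 130 had a mean GC content of 39.3% against 41.1%, and a median level of 0.01 against -0.38. The comparison was chosen after the catalog values were known and is given without a test.

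On opposite strands 59 catalog probes overlapped a probe of another series, in 62 pairs, 26 of them with both probes tested. Levels in these did not follow each other (r = -0.08 across the 26 pairs), with a median difference in level of 2.15 and 6 pairs within 1. Their differences had the same sign in 9, 21 and 18 of the 26 in the same order of comparisons, against 125, 148 and 121 of the 180 pairs on the same strand. In HE against HF a shared sign was thus about as frequent in both kinds of pair.

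To name at least some of them, catalog probes were placed by exact match of all 60 bases to RefSeq's windows around gene starts (250 bases before to 50 after the start, GRCm38.p6). These windows placed 26 of the 12191 probes, 1 of them at 3 places. Most lie in a neighbouring gene that overlaps the window. The tables give gene spans and strands but not exons, so exon, intron or UTR is not stated.

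A_52_P311031 was the third brightest of the tested catalog probes. It matched chr9:115310519-115310578 on the plus strand of GRCm38.p6, 51 to 110 bases before the start of Stt3b, which runs on the minus strand and encodes a catalytic subunit of the oligosaccharyltransferase that attaches sugar chains to new proteins. The probe thus points away from Stt3b and lies in no RefSeq gene span. Its levels were 10.21, 10.65 and 10.32 in ND, 9.93, 10.07 and 10.02 in HF, and 10.00, 10.38 and 10.12 in HE, with every HF array below every ND array. The log2 difference of HF against ND was -0.39 ± 0.16 SE (limma adjusted p = 0.49).

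A_51_P279854 matched chr17:56717818-56717877 on the plus strand, in the span of Ndufa11, an accessory subunit of mitochondrial complex I. It lies near the start of that gene, 119 to 178 bases before the start of Vmac on the other strand. Its levels were 2.03, 1.45 and 1.73 in ND, 2.07, 2.26 and 2.14 in HF, and 2.09, 1.99 and 1.89 in HE. HF was higher than ND by 0.42 ± 0.16 SE without overlap, though HF replicate 1 exceeded ND replicate 1 by little (limma adjusted p = 0.48). A_51_P280492, at chr6:126821978-126822037 on the minus strand in the span of Ndufa9, another complex I subunit, differed by 0.01 ± 0.22 SE (limma adjusted p = 0.99), with levels from 0.14 to 0.94 in ND that covered those of HF and HE.

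A_51_P255441 matched chr19:45005486-45005545 on the minus strand in Mrpl43, a protein of the large mitochondrial ribosome subunit. Its levels were 0.91, 0.73 and 0.95 in ND, 0.97, 1.15 and 0.93 in HF, and 1.01, 0.93 and 0.90 in HE, and the groups overlapped in all comparisons. A_51_P425071 matched chr15:10978653-10978712 on the plus strand in C1qtnf3, a secreted protein of the C1q and tumour necrosis factor related family. Its levels were -1.87, -1.40 and -1.22 in ND, -1.19, -1.06 and -0.15 in HF, and -1.27, -0.72 and -1.29 in HE. HF lay above ND by 0.70 ± 0.30 SE without overlap, with HF replicate 3 the highest (limma adjusted p = 0.5).

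A_51_P372156 matched chr11:72215719-72215778 on the plus strand in 4930563E22Rik, which starts beside Med31, a Mediator subunit on the other strand. Its levels were -0.45, -0.57 and -0.26 in ND, -0.42, 0.12 and 0.18 in HF, and 0.30, 0.58 and 0.24 in HE. Every HE array exceeded every array of the other groups. The log2 difference of HE against ND was 0.80 ± 0.18 SE (limma unadjusted p = 0.0018, adjusted p = 0.16), between groups on different slides, and on slide 2 both HE arrays stood above both HF arrays.

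The other placed and tested probes differed by at most 0.28 in HF against ND and in HE against HF. A_52_P641922 in Nhlrc3, A_52_P198727 in Cfap410 and A_52_P157316 in Trim34b had log2 differences of 0.24, 0.13 and 0.04 for HF against ND and of -0.20, 0.12 and 0.24 for HE against HF. A_51_P104527, in the span of Atrip, whose protein works with the ATR kinase in the DNA damage response, had -0.11 and 0.07. A_51_P155909 in 1700113H08Rik had -0.26 and 0.21, and A_51_P377228 across the start of Gm4793 had 0.28 and -0.09. A_51_P175871 lies in the span of Got2-ps1, whose strand is not known here, and before the start of Gm10874 on the other strand. Its differences were 0.03 and -0.09. None passed limma's adjusted threshold in any comparison.

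Placed probes that were not tested included those in Klrc2, a receptor of natural killer cells, in Zmynd10, needed for the assembly of motile cilia, and in Lrrc26, an auxiliary subunit of potassium channels. A_51_P475788, A_51_P392967 and A_51_P153683, their probes, were well above background on 0 of the 9 arrays each. The Ntng1 probe A_51_P213099 was so on 1 array, ND replicate 3.

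The brightest tested catalog probe was A_52_P123693, with levels of 10.67, 10.93 and 10.73 in ND, 10.26, 10.64 and 10.58 in HF, and 10.57, 10.68 and 10.64 in HE. Every HF array was lower than every ND array, by -0.28 ± 0.14 SE (limma adjusted p = 0.54). A_52_P420504 followed, with levels between 10.10 and 10.68, and its groups overlapped in all comparisons.

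Among the 10 brightest, 3 probes shared one profile over the arrays and no group order. A_52_P321318 had levels of 10.07, 8.91 and 9.25 in ND, 9.64, 9.90 and 9.01 in HF, and 9.65, 9.62 and 9.90 in HE. A_51_P245525 had levels of 9.36, 8.42 and 8.55 in ND, 8.87, 9.05 and 8.43 in HF, and 8.89, 8.87 and 9 in HE. A_51_P323880 had levels of 8.32, 7.20 and 7.58 in ND, 7.86, 7.93 and 7.02 in HF, and 7.76, 8.03 and 8.09 in HE. ND replicate 1 was highest and ND replicate 2 or HF replicate 3 lowest in all of them, and each covered a wider range within ND than the difference between any groups.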

How the data were processed

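Total RNA was labelled with Cy3 and read on 1-colour Agilent arrays, 1 array per sample, per the labels' protocols. Agilent Feature Extraction (version 10.7.1.1 in the submitters' processing notes) gave the authors each spot's intensity, and the deposited intensity is background-subtracted per the file headers. The authors also deposited a table of log2 values, which served as an alternative; the tool behind it is not given in the sources used.

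Control spots and spots flagged as outliers (17 to 29 per array) were left out. No spot was saturated, and 1 catalog value was missing. Levels are log2 processed signals relative to each array's 75th percentile. Probes well above background on at least 3 of 9 arrays were fitted in 1 model with limma 3.58.1 (R 4.3.3; 6 residual degrees of freedom), adjusted over 43948 probes by Benjamini-Hochberg. Python 3.11.15 with numpy 2.4.6 and pandas 2.3.3 did the rest. The number of arrays limits the precision. The fit and the pair search were tested on simulated data.

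The members, rules and comparisons were chosen with earlier results of these data known, so planned permutation tests of summed values are not reported. Named probes are the 2 smallest p per direction with at least 2-fold difference; others were chosen after their values were seen. Planned gene and marker lists were not used, since the files name no genes. Alternatives covered background, scaling, filters, prior, weights, blocks and single arrays.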

Additional observations from a re-analysis of the deposited data

How the results depend on the processing

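Counts are of catalog probes with an unadjusted p under 0.05, first higher and then lower, unless stated. The unadjusted threshold with at least 2-fold gave 53, 54 and 87 probes in the comparisons HF to ND, HE to HF and HE to ND, the order kept below. Normexp let 3 probes pass the adjusted threshold in HE against HF. The array median gave 946 and 79 in HF against ND and 100 and 1290 in HE against HF. Probes detected on all arrays gave 91 lower in HF against ND (85.6% of differences higher, against 50.2% of all probes). No filter gave 235 lower there (66.4% higher, against 41.1%). In HE against HF it gave 552 lower (32.4% higher, against 65.7%) and a gap of -0.172. Array weights gave 233 lower in HF against ND (74.65% higher, against 44.8%). With slide as a block 4 probes passed in HF against ND, where counts were 143 and 252, and 129 were higher in HE against ND; detection then differed by -4.51 and -11.01 percentage points in these comparisons. Within slide 1 HF against ND gave 104 and 239 and -4.51 percentage points. Scaling to E1A spike-ins, added after seeing the data, moved the median of all probes by -0.088, -0.40 and -0.51 (log2). It gave 202 and 226 in HF against ND (47.2% higher, against 18.3% of all probes), 10 and 4207 in HE against HF (0.237% higher, against 0.507%; 2630 passed the adjusted threshold) and 27 and 4303 in HE against ND (0.624% higher, against 0.707%; 3376 passed). It adds 1 constant per array, so the catalog median relative to all probes cannot change under it. The cause of these changes was not tested. Leaving out 1 array gave 259 to 660 higher and 113 to 231 lower in HF against ND, 117 to 228 and 384 to 907 in HE against HF, and 237 to 459 and 302 to 520 in HE against ND, with 0 passing after adjustment each time. The gap ranged from 0.044 to 0.15, from -0.15 to -0.093 and from -0.072 to 0.033, and detection from -2.89 to 0.92, -4.69 to 1.53 and -5.58 to 0.64 percentage points. With the replicate block counts were 396 and 127, 186 and 642, and 320 and 374. Of these, 75.7%, 22.5% and 46.1% were higher, against 43.9%, 54.2% and 55.1% over all probes. Arrays of 1 number correlated at -0.33 to 0.168 after removing group means. Arrays of different numbers were not set beside them, so this does not settle whether the numbers pair the arrays. None of the probes named by the rule changed direction under any alternative run. They were chosen for large differences in these same arrays, so a kept direction was nearly fixed by the choice and gives no support. Signal near background limits the dim probes, and 3 arrays per group limit all tests.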
